A study of Drosophila melanogaster with 2 samples.

Results

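The vacuolar proton pump (V-ATPase) genes of Drosophila melanogaster were described at the sites found by chromatin immunoprecipitation of E(spl)m5-HLH, a basic helix-loop-helix repressor of the Enhancer of split complex. The members were the 33 protein-coding genes of the Ensembl BDGP6 annotation whose symbol begins with Vha, out of 13945 protein-coding genes on the chromosomes that carry peaks. They comprised 13 genes of the cytoplasmic V1 sector, 18 of the membrane V0 sector and 2 accessory genes. The material was whole embryos, 0 to 12 hours old and of both sexes, from a transgenic line that stably expresses E(spl)m5-HLH with GFP at its C terminus. Both samples, replicates 3 and 4, belong to this 1 group, and no wild-type or mock group was analysed here. No source used here names the promoter that drives the transgene. The free text of each sample names it an input control, while its assay and antibody fields name an immunoprecipitation of E(spl)m5-HLH, and the values are treated as those of immunoprecipitations.

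The pump moves protons into endosomes, lysosomes, the Golgi and, in some epithelia, out of the cell. V1 hydrolyses ATP and turns a central stalk, and the stalk turns a ring of proteolipid subunits in V0 that carries the protons across the membrane. In flies, loss of pump function in endosomes alters Notch signalling, and the E(spl) genes are Notch targets; the fly MiT/TFE factor Mitf activates pump genes through sites with the core CACGTG, which E(spl) bHLH proteins can also bind. Several subunits have more than 1 gene, usually with 1 copy expressed in most tissues and others that are restricted, several of them to the testis.

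For each replicate and for the pooled reads the authors deposited a list of 30000 candidate peaks, background included, and from these a list of 2487 peaks that passed their reproducibility step, here called thresholded. All 2487 were also the strongest 2487 of the pooled list. Signal is the authors' own value per peak, each list on its own scale, so replicates were compared by rank within a list (rank 1 is strongest). A gene was called when the summit of a thresholded peak was at most 1 kb from one of its start sites. The strongest pooled peak, with a signal of 2284, lay 47 bp from the start of E(spl)m7-HLH, and the tagged gene had a peak at rank 5. Read depth is unknown from these lists, so no limit for depth could be set.

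Sequences at the highest ranked summit of the pump, at Vha55, and at Vha68-2 are shown first, since the motif results refer to them. They are from the RefSeq dm6 reference, 5′ to 3′ along the strand of the Vha gene. The first is the stretch of the Vha55 5′ UTR downstream of the strongest summit, with capitals for CACGCG (read here as CGCGTG) and GGCACGTG, an extended E box of the E(spl) family. The second is the stretch without annotated exons between the divergent start sites of Vha55 and Snx3, with capitals for TATCGATA, the site of the promoter factor Dref. The third runs up to the first start site of Vha68-2, with capitals for GGTCACACT (read here as AGTGTGACC), a core promoter element.
Vha55 sites, chr3R:12627767-12627796, minus strand: aCGCGTGacgggtcatgtgacGGCACGTGa
Vha55 upstream, chr3R:12627830-12628030, minus strand: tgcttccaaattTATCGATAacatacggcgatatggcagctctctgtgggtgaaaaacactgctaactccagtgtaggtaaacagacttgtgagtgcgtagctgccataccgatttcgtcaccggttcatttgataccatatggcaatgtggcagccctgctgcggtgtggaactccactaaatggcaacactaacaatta
Vha68-2 upstream, chr2L:12974151-12974321, plus strand: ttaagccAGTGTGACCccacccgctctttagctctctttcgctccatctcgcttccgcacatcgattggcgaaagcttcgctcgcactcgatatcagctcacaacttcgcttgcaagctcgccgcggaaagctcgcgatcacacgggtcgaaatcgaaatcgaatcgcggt

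Of the 33 pump genes, 7 were called: Vha55, Vha68-2, Vha44, Vha36-1 and Vha14-1 of V1, and Vha16-1 and Vha100-2 of V0. That is 21.2% (95% Wilson interval 10.7 to 37.8), beside 11.9% of all protein-coding genes. The interval includes the background share. No test was made, and the count is not read as setting the pump genes apart from others. The peaks were of modest strength. The 8 thresholded summits at these genes ranked from 943 to 2414, with a median signal of 134, beside 158 for the 1369 thresholded summits within 1 kb of any protein-coding start site. The strongest, at Vha55, had 8.21% of the signal of the strongest peak. Of the 33 genes, 22 had a pooled candidate of any strength (66.7%), beside 57.5% of all protein-coding genes. Each replicate also had candidates at 22 of the 33, beside 56.9% of all genes in replicate 3 and 58.1% in replicate 4. Where there was one, the strongest had a median signal of 58.8 at Vha genes and 62.2 over all protein-coding genes with a candidate.

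**Figure D1:**
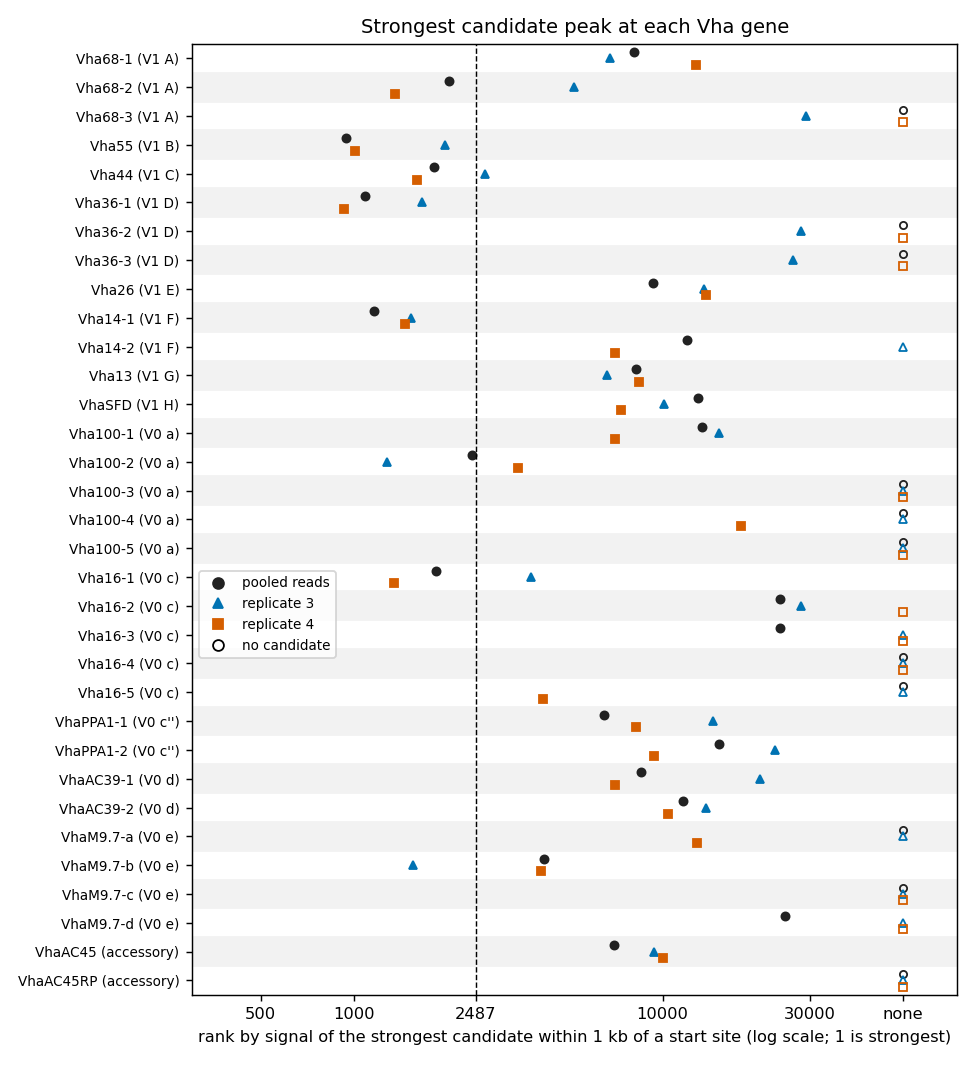
Rank by signal of the strongest candidate within 1 kb of a start site of each of the 33 Vha genes, on a log axis, in the pooled list (circles), replicate 3 (triangles) and replicate 4 (squares). Open symbols under "none" mark a list with no candidate, and the dashed line is rank 2487, the length of the thresholded list. The pooled circles of 7 genes lie left of the line, Vha100-2 just inside it at rank 2414.

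The V1 sector had 5 of 13 genes called (38.5%, interval 17.7 to 64.5), beside 11.9% of all protein-coding genes. When a summit counted only for its nearest start site, V1 had 2 of 13 (15.4%, interval 4.33 to 42.2), beside 8.73%. The nucleotide-binding subunits A and B form the head of V1. Vha55 encodes subunit B and had the highest ranked summit of the pump, at 3R 12627825 (dm6, as all positions here), in its own 5′ UTR and 4 bp from a start site. Its signal was 188 in the pool (rank 943), 71.8 in replicate 3 (rank 1974) and 92.6 in replicate 4 (rank 1007). The summits of both replicates lay within 6 bp of the pooled one. A second thresholded summit, at 3R 12626769 in an intron, lay 932 bp downstream of the innermost of the 3 Vha55 start sites and had a signal of 118 (rank 2368). That summit had a candidate 42 bp away in replicate 3 (rank 2907) and 158 bp away in replicate 4 (rank 2535). The replicate 4 candidate lay closer, at 48 bp, to another pooled candidate (rank 7903). The promoter summit was thus inside the 2487 strongest of each replicate. The intronic one was outside those of replicate 3 and had no candidate within 100 bp in replicate 4. The divergent gene Snx3, a sorting nexin gene, starts 206 bp from the promoter summit.

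Subunit A, which binds and splits ATP, has 3 genes, and 1 of them was called. Vha68-2 is the widely expressed copy. Its summit at 2L 12974296 lay 26 bp upstream of a start site, in intergenic DNA, with a signal of 127 in the pool (rank 2040), 44.3 in replicate 3 (rank 5149) and 80.7 in replicate 4 (rank 1358). The replicates differed here: the peak was among the 2487 strongest of replicate 4 and well outside them in replicate 3. Vha68-3, which begins after a gap of 178 bp on the same strand, had no pooled candidate and a single weak one in replicate 3 (rank 29151). Vha68-1, separated from Vha68-2 by 22162 bp, had a candidate at pooled rank 8059. It lay 88 bp from the start of the divergent gene mTor, which encodes the growth kinase of TORC1, and 461 bp from that of Vha68-1.

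The central stalk, subunits D and F, had 1 called gene each. Vha36-1 encodes subunit D, and its summit at 2R 15541327 had a signal of 174 in the pool (rank 1087), 77.8 in replicate 3 (rank 1669) and 96.4 in replicate 4 (rank 929). It was among the 2487 strongest of both replicates. The summit lay 108 bp upstream of Vha36-1 but 36 bp from the start of CG8187, in the 5′ UTR of that divergent gene. Vha14-1 encodes subunit F, and its summit at 2R 15679235 had a signal of 167 in the pool (rank 1168), 81.1 in replicate 3 (rank 1534) and 78.0 in replicate 4 (rank 1463). Its ranks in the replicates were the closest of the 7 called genes. The summit was not at its promoter: it lay 849 bp downstream of the Vha14-1 start and 191 bp beyond the end of the gene, 279 bp from the start of Gmppa, a GDP-mannose pyrophosphorylase gene. The other copies had no thresholded summit: Vha36-2 and Vha36-3 had a candidate in replicate 3 alone (ranks 28134 and 26401), and Vha14-2 had one at pooled rank 12017 and none in replicate 3.

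Subunits C, E, G and H have 1 gene each and form or hold the outer stalks that keep V1 from turning with the rotor. Vha44 encodes subunit C, which joins V1 to V0 reversibly. Its summit at 2R 16336735 had a signal of 135 in the pool (rank 1817), 61.9 in replicate 3 (rank 2667) and 74.1 in replicate 4 (rank 1600). The replicates lay on opposite sides of rank 2487. The summit lay between divergent starts, 98 bp upstream of Vha44 and 25 bp from a start of Hmgs. It fell in an annotated 5′ UTR of Hmgs, which encodes HMG-CoA synthase of the mevalonate pathway. Vha13 (subunit G, pooled rank 8220), Vha26 (subunit E, 9329) and VhaSFD (subunit H, 13061) had only candidates below the threshold, and no replicate placed one of them above rank 6606. Without replicate 4, with the strongest 2487 of replicate 3 in place of the thresholded list, V1 had 3 genes called, without Vha44 and Vha68-2. The single-copy subunits then had 1 of 5 called, against 2 of 5 in the thresholded list. Of all protein-coding genes 12.2% were called without replicate 4, against 11.9% in the thresholded list.

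The V0 sector had 2 of 18 genes called (11.1%, interval 3.10 to 32.8), beside the background of 11.9%. Vha16-1 encodes the proteolipid c of the rotor ring. Its summit at 2R 6633126, 36 bp upstream of a start site, had a signal of 134 in the pool (rank 1850), 44.5 in replicate 3 (rank 5122) and 80.9 in replicate 4 (rank 1354). As at Vha68-2, replicate 4 ranked it within the strongest 2487 and replicate 3 did not. In replicate 3 the strongest candidate of the gene was a different one, at rank 3742, 165 bp from the second start site, which matched a pooled candidate at rank 5109 in an intron of the gene.

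Vha100-2 encodes subunit a, the part of V0 that holds the proton half-channels. Its thresholded summit at 3R 18397230 had a signal of 116 in the pool (rank 2414), 88.4 in replicate 3 (rank 1278) and 32.8 in replicate 4 (rank 7658, 138 bp away). The peak was among the 2487 strongest of replicate 3, whereas replicate 4 had no candidate within 100 bp of it. The replicate 4 candidate lay closer, at 92 bp, to another pooled candidate of the gene (rank 18181). It was the called gene closest to the end of the thresholded list. The summit lay 302 bp upstream of the inner start site of Vha100-2 and 235 bp from the start of Vti1b, a SNARE gene, in whose 5′ UTR it fell. A candidate just past the threshold lay 43 bp upstream of the outer start site, with a pooled signal of 101 (rank 3155), and ranked 3182 in replicate 3 and 3403 in replicate 4. The lowest signal in the thresholded list was 114. Vha100-4, with 517 bp between it and Vha100-2, had a candidate in replicate 4 alone, at rank 17962. Without replicate 3, with the strongest 2487 of replicate 4 in place of the thresholded list, Vha100-2 lost its call. V0 then kept only Vha16-1, 1 of 18, beside 11.5% of all protein-coding genes. With only the start site farthest upstream of each gene, V0 also had 1 gene called, beside 10.3%.

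**Figure D2:**
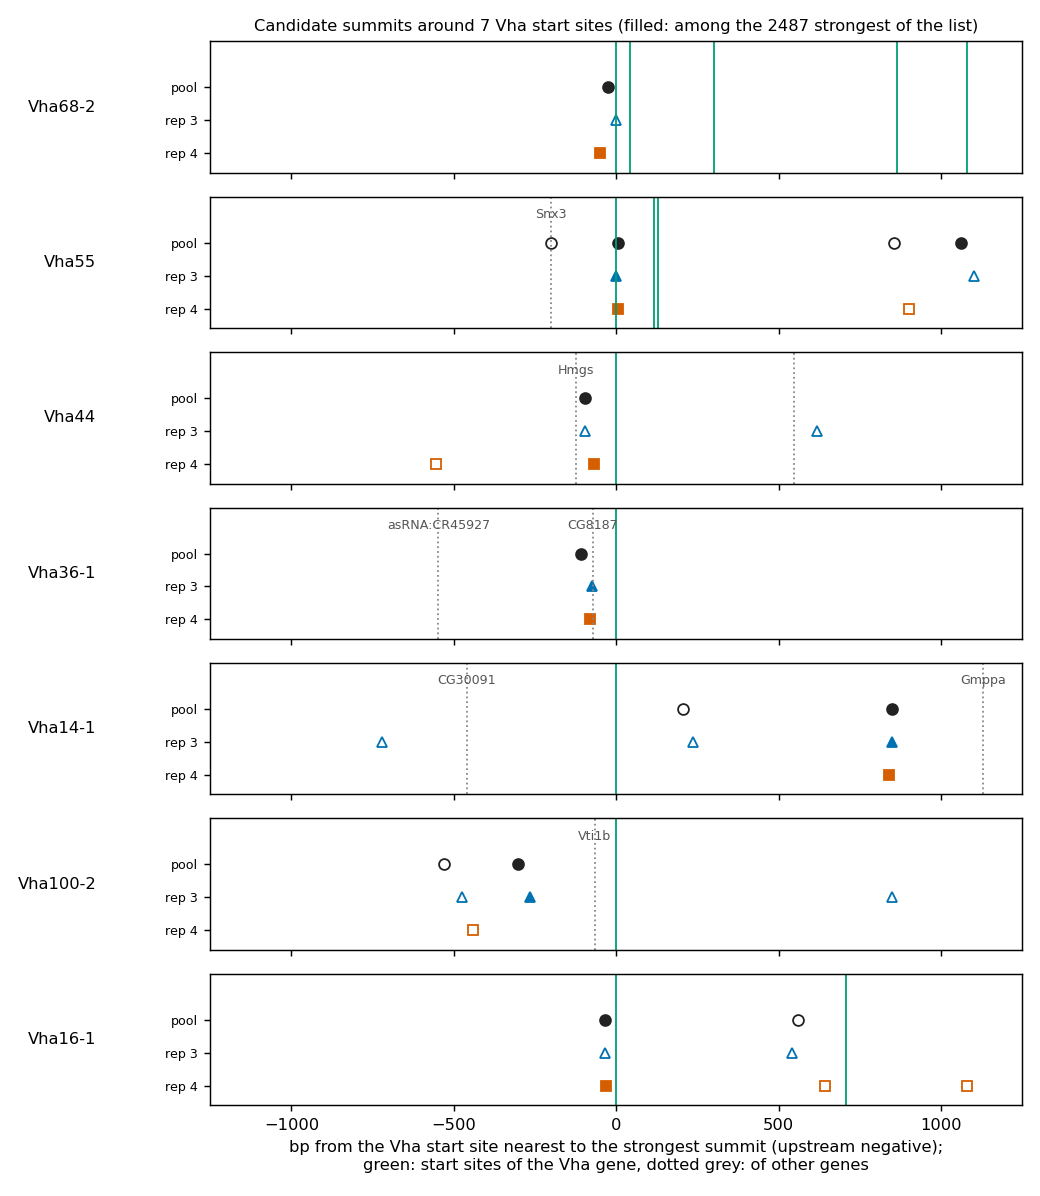
Candidate summits around the 7 called Vha genes, by distance in bp along the gene's strand from the Vha start site nearest to the strongest summit, in the pooled list and in each replicate; filled symbols are among the 2487 strongest of their list. Green lines are start sites of the Vha gene and dotted grey lines those of other genes. The summits at Vha68-2, Vha55 and Vha16-1 sit at Vha start sites, whereas that of Vha14-1 lies 849 bp downstream of its start, towards Gmppa; the panel of Vha100-2 is centred on its inner start site and does not reach the outer one.

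The other V0 genes had no thresholded summit. VhaM9.7-b, the widely expressed copy of the small subunit e, came closest, 78 bp upstream of its start, with a pooled signal of 86.6 (rank 4136). The replicate 3 candidate at that position ranked 1552, inside the strongest 2487. In replicate 4 the strongest candidate, at rank 4053, was a different one, 399 bp from the start. The replicate 4 candidate nearest to the pooled summit lay 168 bp from it, at rank 4311. VhaPPA1-1 (subunit c'') stood at pooled rank 6448, with ranks of 14529 in replicate 3 and 8214 in replicate 4. VhaAC39-1, for subunit d of the rotor, stood at 8503, and its second copy VhaAC39-2 at 11653. Vha100-1, the subunit a gene known from neurons, stood at 13392 and VhaPPA1-2 at 15184. The proteolipid copies Vha16-2 and Vha16-3, separated by 985 bp, shared 1 candidate at rank 24023, and VhaM9.7-d stood at 24968. The accessory gene VhaAC45, whose product assists assembly and sorting of the pump, had a candidate at rank 6972, 183 bp from its start. No list held a candidate for 5 genes: Vha100-3, Vha100-5, Vha16-4, VhaM9.7-c and VhaAC45RP. A further 6 had one in a single replicate and none in the pool, namely Vha68-3, Vha36-2 and Vha36-3 in replicate 3, and Vha100-4, VhaM9.7-a and Vha16-5 in replicate 4. Of these Vha16-5 was the strongest, at rank 4091. Pooled candidates were present at 22 of the 33 Vha genes, beside 57.5% of all protein-coding genes.

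Within subunits that have several genes, the called genes were all among the widely expressed copies under the 1 kb rule. Of the 8 subunits with more than 1 gene, 5 had that copy called (62.5%, interval 30.6 to 86.3): Vha68-2, Vha36-1, Vha14-1, Vha100-2 and Vha16-1. None of the 18 other copies was called (interval up to 17.6%), and single-copy subunits had 2 of 5 called, beside 11.9% of all protein-coding genes. When a summit counted only for its nearest start site, 2 of the 8 widely expressed copies were called (25.0%, interval 7.15 to 59.1), none of the 18 others and 1 of the 5 single-copy genes, beside 8.73%. Another gene's start was closer at Vha36-1, Vha14-1 and Vha100-2. Among the strongest 2487 of both replicates the counts were also 2 of 8, 0 of 18 and 1 of 5, beside 7.60%. All 8 widely expressed copies and all 5 single-copy genes had a candidate in both replicates, as did 4 of the 18 other copies, beside 45.8% of all protein-coding genes. The strongest pooled signal ranged from 57.3 to 174 over the 8 widely expressed copies, with a median of 122. Over the 8 other copies that had a pooled candidate it ranged from 31.7 to 59.1, with a median of 43.3, and the remaining 10 had none. The group of widely expressed copies was drawn from background knowledge; expression was not measured here, and whether it accounts for the pattern was not tested. The intervals treat genes as independent and cover counting error only.

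The rule searches around every start site of a gene, so a gene with several start sites has a wider search. Whether this accounts for the shares that follow was not tested. The 8 Vha genes with more than 1 start site had 5 called (62.5%, interval 30.6 to 86.3), beside 22.2% of the 3699 protein-coding genes with more than 1. By nearest start site 3 of these 8 were called (37.5%), beside 18.0%. Among the strongest 2487 of both replicates 1 of them was called (12.5%), beside 15.1%. The 25 with a single start site had 2 called (8.0%), beside 8.12% of 10246 genes. By partner, 5 of the 14 Vha genes with a divergent protein-coding start within 1 kb upstream were called, and 2 of the 19 without one, beside 17.6% and 8.70% of all genes of each kind. When each summit was given only to its nearest start site, 3 of the 33 Vha genes were called (9.09%), beside 8.73% of all protein-coding genes. These were Vha55, Vha68-2 and Vha16-1. For Vha44, Vha36-1, Vha14-1 and Vha100-2 the start of another gene was closer, and to which gene such a shared peak belongs cannot be told apart from position. The share of Vha genes among the strongest 2487 of both replicates, 3 of 33 (Vha55, Vha36-1 and Vha14-1, 9.09%), stood beside 7.60% of all genes. Taken alone, the strongest 2487 of replicate 3 called 5 of 33 Vha genes, beside 12.2%, and those of replicate 4 called 6 of 33, beside 11.5%.

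**Figure D3:**
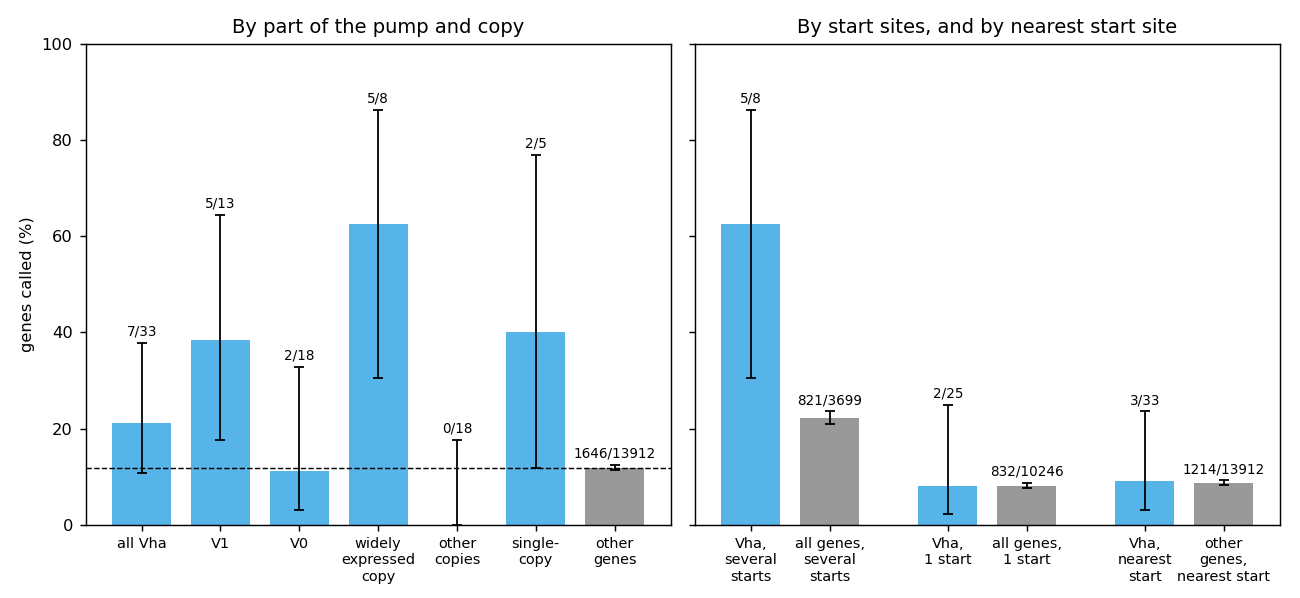
Percent of genes called, with the number called over the number of genes above each bar and 95% Wilson intervals as error bars; blue bars are Vha genes and grey bars the genes they are set beside. Left, a thresholded summit within 1 kb, by part of the pump and by copy, with the other protein-coding genes at the dashed line; right, the same split by number of start sites, and the share when a summit counts only for its nearest start site, where the Vha genes (9.09%) and the other genes (8.73%) are close.

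Sequences at the 8 thresholded Vha summits were searched on both strands for 11 motifs within 100 bp. CACGTG, the E box bound by E(spl) proteins and by Mitf, was found at 2 of the 8, those of Vha55 and Vha44, beside 5.79% of all thresholded summits. At Vha55 it lay 52 bp downstream of the summit inside GGCACGTG, which 1.29% of all thresholded summits held, in the first of the sequences shown above. At Vha44 it lay 51 bp downstream inside TCACGTGA, the palindrome of MiT/TFE sites, which 0.241% of them held. Vha16-1 carried TCACGTGA as well, 128 bp downstream of its summit and so outside the window. The longer CLEAR element of MiT/TFE sites was found at none of the 8. CACGCG, the other E(spl) site, was found at Vha55 (30 bp away) and Vha36-1 (67 bp), beside 9.81% of all, and CAGCTG, the proneural E box, at 3 of the 8 (the intronic Vha55 summit, Vha44 and Vha36-1), beside 16.2%.

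CACNAG, the N box, was found at 3 of the 8 (the intronic Vha55 summit, Vha44 and Vha16-1), beside 26.3%. TATCGATA, GGTCACACT, GAGAGAG (bound by GAGA factor) and CAGGTAG (bound by Zelda) were found within 100 bp of none of them. Few of all thresholded summits held these either: 2.77%, 1.37%, 9.61% and 2.57%, in that order. The second sequence above has TATCGATA 186 bp upstream of the Vha55 summit, and the third has GGTCACACT 130 bp upstream of the Vha68-2 summit. CACGTG is part of the 3 longer E boxes, so these counts overlap. The summits of Vha68-2, Vha14-1, Vha100-2 and Vha16-1 and the intronic one of Vha55 held neither CACGTG nor CACGCG within 100 bp. Those of Vha68-2, Vha14-1 and Vha100-2 held none of the 11 motifs there.

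Promoters were searched in the same way, from 250 bp upstream to 50 bp downstream of the outermost start site of each gene. CACGTG was found in 3 of 33 Vha promoters (9.09%), beside 4.20% of all protein-coding promoters, and these were Vha44, VhaM9.7-d and VhaAC45RP, of which only Vha44 was called. TCACGTGA was found in 1 Vha promoter, that of Vha44, beside 24 of 13945 promoters in all. CACGCG was found in 2 Vha promoters (6.06%), Vha55 and Vha36-1, beside 6.12% of all promoters. Both of these were called genes. TATCGATA was found in 2 (6.06%), beside 9.36%, and GGTCACACT in 3 (9.09%), beside 6.05%.

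Other genes of the lysosomal pathway were counted by the same rule, and 5 of 33 were called (15.2%, interval 6.65 to 30.9), beside 11.9%. Mitf, the regulator of pump genes, had a summit 530 bp from a start site, with a signal of 130 in the pool (rank 1961). The strongest candidate of replicate 3 lay 515 bp from a start site, with a signal of 79.3 (rank 1607). That of replicate 4, with a signal of 63.5 (rank 2187), was a different candidate, 345 bp from a start site. The nearest other gene was PIP4K in the pool and replicate 3 (2540 and 2525 bp away) and Dyrk3 in replicate 4 (11328 bp). Cln7, whose human counterpart is a lysosomal membrane protein, had one 21 bp from a start site (rank 948; 1215 in replicate 3 and 905 in replicate 4). The strongest in the list, at Vps33B (rank 785), lay closer to Fur1 than to Vps33B. At Rab7, the late endosomal GTPase gene (1479), and at the strongest summit of CtsL1, a cathepsin gene (1628), another gene's start was also closer. When a summit counted only for its nearest start site, 3 of the 33 were called (9.09%), beside 8.73% of all protein-coding genes. These were Cln7, CtsL1 and Mitf, so CtsL1 had a further thresholded summit nearest to its own start. None of the 9 genes for TORC1 and its lysosomal anchor was called. The assembly factor genes Rbcn-3A and Rbcn-3B, whose products promote pump assembly, had candidates only, at ranks 5896 and 6191.

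The share of 21.2% called for the pump genes was also set beside the mitochondrial ATP synthase, the related rotary enzyme that makes ATP. Of its 15 genes 1 was called (6.67%, interval 1.19 to 29.8), beside 11.9% of all protein-coding genes. It was ATPsynE, with a summit at rank 1927, 25 bp from a start site. The intervals of the pump and the synthase overlap. ATP6AP2, an accessory pump gene formerly called VhaPRR and so outside the naming rule, had a candidate at pooled rank 3788, 111 bp from a start site. The strongest candidates of the replicates lay at other positions, 3 bp from a start site in replicate 3 (rank 2532) and 557 bp in replicate 4 (rank 4859).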

How the data were processed

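The 2 libraries, of 1 group, were used as peak lists. Per the deposited text files that accompany them, candidate peaks were derived from each replicate or from both together and 1 shared control alignment, on dm6, and the thresholded list from all 3 candidate lists. No aligner, caller, version or threshold is given in the sources used here. Signal, as deposited, is the authors' measure of enrichment over the control, on a scale they do not state. The deposited −log10 q value was at its maximum in all 2487 thresholded peaks and was not used to rank.

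Summits were taken as start plus offset, 1-based, and set against Ensembl release 115 start sites; peak ends lay within the reference chromosomes. Genes on Y, which carries no peak, were left out. Members, groups and motifs were chosen with earlier results of these data known, so counts are read beside the share of all protein-coding genes, with no test. Every Vha gene and every called gene of the other lists is named. The lists were matched by symbol, 3 under an updated symbol. Intervals are Wilson intervals at 95%. Alternatives were other distances, lists, start sites, replicates, matching distances and motif windows. The window and motif searches were tested on simulated data. Which copy is widely expressed was taken from background knowledge, not measured. Python 3.11.15, numpy 2.4.6, pandas 2.3.3, scipy 1.17.1 and matplotlib 3.10.9 were used.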

Additional observations from a re-analysis of the deposited data

How the results depend on the processing

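The count of 7 called Vha genes (21.2%, beside 11.9% of all genes) stayed at 7 with start sites within 2 kb (beside 15.0%), with start sites of coding transcripts (11.9%) or with any overlap of the peak (12.5%). It was 6 within 500 bp (Vha14-1 lost, beside 10%) and 6 with the outermost start site (Vha100-2 lost, beside 10.3%). With 1 replicate left out it was 5 to 6, beside 12.2% without replicate 4 and 11.5% without replicate 3. Without replicate 4 it shared 4 genes with the thresholded list and added VhaM9.7-b. Leaving out 1 replicate left 3 to 5 V1 genes, 1 to 2 V0 genes, 1 to 2 single-copy genes and 4 widely expressed copies called. Among the strongest 1243 peaks, 3 Vha genes were called, of which 3 in V1, 0 in V0, 2 widely expressed copies and 1 single-copy gene, beside 5.99% of all genes. With all pooled candidates the counts were 22 Vha genes, 10 in V1, 11 in V0, 1 accessory, 8 widely expressed copies, 8 other copies and 5 single-copy genes, beside 57.5%. With the outermost start site V0 had 1. CACGTG was at 2 of the strongest summits within 100 bp, 0 within 50 bp and 3 within 250 bp. A thresholded summit matched in both replicates at 6 genes within 50 or 100 bp and at 7 within 250 bp. The gene matched only within 250 bp was Vha100-2. With 2 libraries, no list from a mock precipitation and unknown depth, no difference between groups of samples could be tested.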

Other observations

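A pair of genes linked to the pump had peaks just past the end of the thresholded list. The candidate at Lamtor3, which encodes a lysosomal anchor of TORC1, had a pooled signal of 110 (rank 2661) and a signal of 103 in replicate 3 (rank 937). It lay 44 bp from the start of Lamtor3 and 158 bp from that of fws in the pool, and 88 and 114 bp in replicate 3. The strongest candidate of replicate 4 was a different one, 170 bp from Lamtor3 and 372 bp from fws, with a signal of 19.0 (rank 23563). The candidate at mtd, whose product belongs to a family of pump-binding proteins, had a pooled signal of 113 (rank 2544) and lay 263 bp from a start site. The strongest candidates of the replicates ranked 1978 in replicate 3 and 1936 in replicate 4, each inside the strongest 2487 of its list. They lay 105 and 334 bp from a start site, that of replicate 3 more than 100 bp from the pooled summit. Over all protein-coding genes, 11.9% were called.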
